A study of Mus musculus with 8 samples.

Results

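The Wnt family of secreted ligands, their Frizzled receptors and LRP co-receptors, and the secreted proteins that block them were followed in mouse embryos with and without Runx1, the DNA-binding subunit of a transcription factor required for definitive blood formation. A gene was included where its symbol in the array annotation began with Wnt, Fzd, Sfrp or Dkk and a number, or was Lrp5, Lrp6, Wif1 or Frzb. This gave 81 probe sets of 42 genes among the 18193 genes on the array with a probe set of their own, and for each gene the probe set with the highest mean over all arrays was used. They comprised 19 Wnt ligands, 10 Frizzled receptors, 2 LRP co-receptors, 10 secreted inhibitors and Fzd10os, an antisense RNA at the Fzd10 locus that is not a receptor and was included by its name. Of these genes, 25 had more than 1 probe set.

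Wnt proteins are lipid-modified signals that act over short distances. In the canonical branch a ligand joins a Frizzled and an LRP at the cell surface, beta-catenin escapes degradation, and TCF/LEF factors switch on target genes, whereas other ligands act through cell polarity and movement. Sfrp, Frzb and Wif1 proteins bind the ligands themselves, while Dkk1 and its closest relatives bind the LRP co-receptors. In embryos the system patterns the body axis, the neural tube, the limbs and many organs.

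The 4 groups were wild type and Runx1 knockout embryos, each at embryonic day 8.5 (E8.5) and at embryonic day 12 (E12), with 2 arrays per group, all of embryo propers on a BALB/c background. The arrays are described as biological replicates, with 2 embryo propers in each group. The embryo proper is a mixture of tissues, so fewer cells of a type and less RNA per cell cannot be told apart. Levels are log2 intensities, and errors of groups are SD with n = 2.

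The replicate arrays of the knockout groups correlated at 0.983 (E8.5) and 0.992 (E12), but the 2 wild type pairs at 0.927 (E8.5) and 0.965 (E12). Of the 6 probe sets for Runx1, 0 had a lower mean in knockout at E8.5 and 3 at E12. Since it is not known here whether these probes lie in the part that was disrupted, they do not check the labels. Xist, the RNA of the inactive X chromosome, was high and the Y-linked Eif2s3y low in E8.5 wild type replicate 1 and E12 knockout replicate 2. E8.5 wild type replicate 1 also carried markers of trophoblast, the outer cell layer that forms placenta. Tpbpa, a trophoblast marker, read 9.52 there and 4.15 to 4.24 in the remaining 3 arrays of that stage. All 6 measured trophoblast markers of 10 listed had a summed intensity of 13613 there, against 644 to 1084 in its 3 companions of that stage and 235 to 260 in the E12 arrays. Markers of yolk sac endoderm, which surrounds the embryo, averaged 12.08 to 13.04 on the E8.5 arrays but 6.92 to 7.26 on those of E12 (7 measured of 8 listed). Markers of nerve cells, heart, limb bud, cartilage and somite were all at higher averages at E12. Their part in the results below was not tested.

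The promoters of 3 secreted inhibitors that the results turn on are shown for their sequence context. Dkk2 and Wif1 had the largest measured differences between stages among the 42 genes, and Dkk1 was highest in the E8.5 knockout arrays. Each run is the 250 bases before the annotated start, 5' to 3' on the gene's strand, from RefSeq on GRCm38.p6. Capitals mark 3 kinds of match, searched on both strands. The RUNX core was taken as TGNGGT with C or T at the open base, the TCF/LEF core as CTTTG followed by A or T at each of the next 2 bases, and the third was TATAAA.
Dkk2, chr3:132085042-132085291, plus strand: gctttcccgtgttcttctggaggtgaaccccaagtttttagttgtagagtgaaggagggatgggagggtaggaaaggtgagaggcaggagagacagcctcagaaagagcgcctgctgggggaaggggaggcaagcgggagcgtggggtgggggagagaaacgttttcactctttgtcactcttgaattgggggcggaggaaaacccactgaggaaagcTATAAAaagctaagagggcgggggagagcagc
Wif1, chr10:121033754-121034003, plus strand: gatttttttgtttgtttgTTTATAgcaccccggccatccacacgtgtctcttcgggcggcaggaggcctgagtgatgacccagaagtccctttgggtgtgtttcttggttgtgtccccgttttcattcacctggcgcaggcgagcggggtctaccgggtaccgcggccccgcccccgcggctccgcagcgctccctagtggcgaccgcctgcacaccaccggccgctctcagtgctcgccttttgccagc
Dkk1, chr19:30549497-30549746, minus strand: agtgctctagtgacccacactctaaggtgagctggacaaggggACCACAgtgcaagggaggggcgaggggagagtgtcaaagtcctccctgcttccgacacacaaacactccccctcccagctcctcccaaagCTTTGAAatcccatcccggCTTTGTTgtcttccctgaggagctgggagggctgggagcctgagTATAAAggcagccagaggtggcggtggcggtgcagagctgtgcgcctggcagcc

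The Dkk1 window held 1 RUNX match, which lies on the other strand, and 2 TCF/LEF matches at 117 and 98 bases before the start. A TATAAA match lay 54 bases before the start of Dkk1 and 32 bases before that of Dkk2, whereas that of Wif1 lay 232 bases before it and on the other strand. The motif letters do not overlap in these windows. Of the 42 genes, 27 had a promoter, with 30 windows, in the RefSeq set used. A RUNX match was in 13.3% of these windows (those of Dkk1, Sfrp5, Wnt10b and Wnt11) and in 18.6% of all 32851 windows. A TCF/LEF match was in 13.3% (Dkk1, Fzd7, Wnt11 and Wnt5b) and in 14.8% of all windows, and TATAAA was in 16.7% and 12.4%. A match of letters is a description and not a measured binding site.

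**Figure D1:**
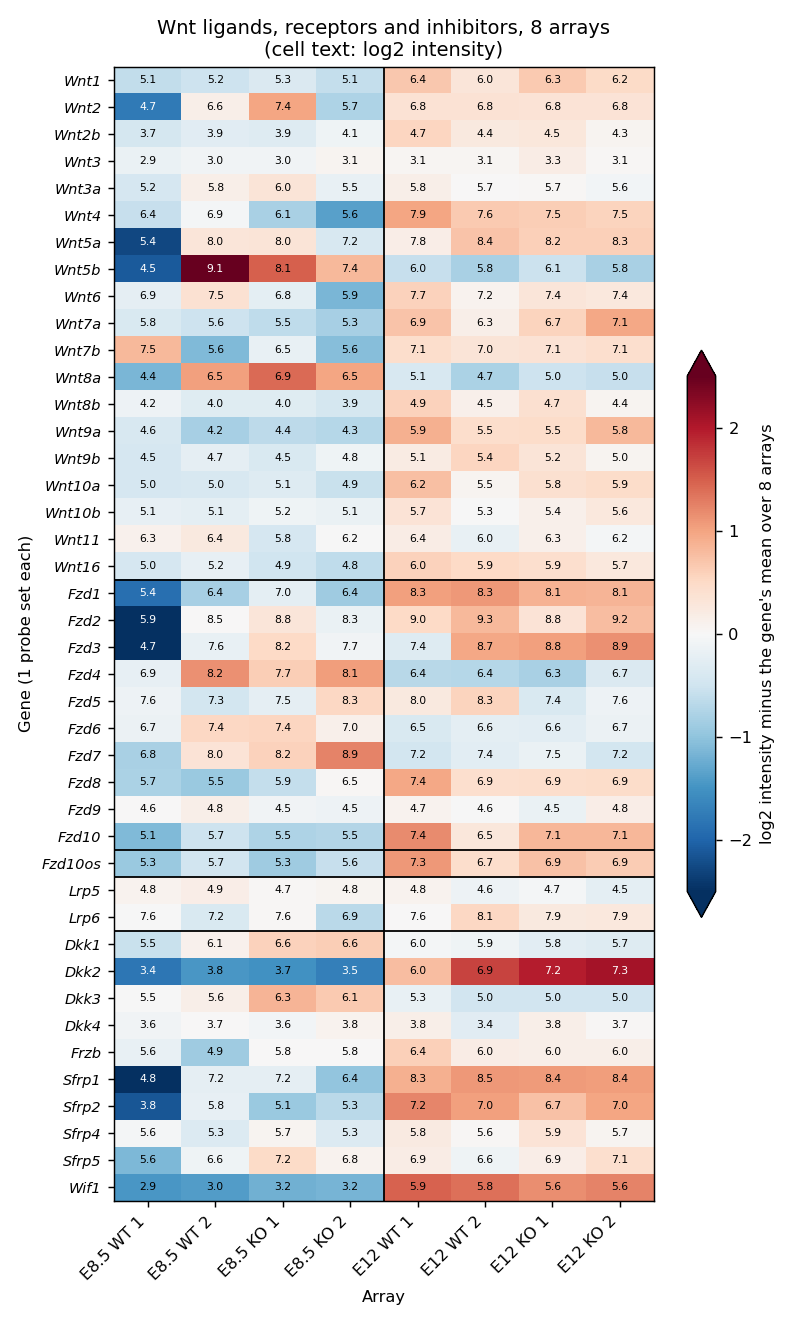
Log2 intensity of the 42 genes (rows, grouped by lines into Wnt ligands, Frizzled receptors, the antisense RNA, LRP co-receptors and secreted inhibitors) on the 8 arrays (columns), with the value in each cell and the colour giving the deviation from the gene's own mean. Dkk2 and Wif1 change from blue at E8.5 to red at E12, and the first column, E8.5 wild type replicate 1, is dark blue for Wnt5b, Fzd3, Fzd2, Wnt5a and Sfrp1.

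Between E8.5 and E12 the ligands, receptors and inhibitors were mostly higher at the later stage. Averaged over genotypes, 34 of the 42 genes had a positive difference, with a median of 0.58, beside a median of 0.013 over all probe sets. By limma, with Benjamini-Hochberg adjustment over all 45037 probe sets tested and a threshold of 0.05, 17 rose and 2 fell. The array as a whole had 20.6% of its probe sets called higher and 22.5% called lower, beside 40.5% and 4.76% of these genes. The separation of arrays gave a similar picture. All 4 E12 arrays were above all 4 E8.5 arrays for 20 genes (47.6%, beside 23.2% of all probe sets), and below them for Dkk3, Fzd4 and Fzd6 (7.14%, beside 23.4%).

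Among the ligands, 9 of 19 rose and none fell. Wnt4, a ligand needed for kidney tubules and the female reproductive tract, read 6.36, 6.89, 6.12 and 5.59 at E8.5 (wild type replicates 1 and 2, then knockout replicates 1 and 2) and 7.93, 7.59, 7.55 and 7.50 at E12 in the same order. The groups of the 2 stages did not overlap, and the difference was 1.40 (SE 0.19, adjusted p = 0.00176, 2.64-fold). Wnt9a, a ligand of developing joints, read 4.19 to 4.63 at E8.5 against 5.46 to 5.92 at E12, a difference of 1.30 (SE 0.17, adjusted p = 0.00166). Wnt7a, a dorsal signal of the limb ectoderm, read 5.30 to 5.76 at E8.5 against 6.29 to 7.11 at E12. Its difference was 1.19 (SE 0.18, adjusted p = 0.00249), and all 3 of its probe sets had that sign.

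Wnt1, which is needed for the midbrain and neural crest, read 5.06 to 5.32 at E8.5 against 5.98 to 6.36 at E12 (difference 1.05, adjusted p = 0.00154). Wnt16 rose by 0.88, Wnt10a by 0.85, Wnt8b by 0.59, Wnt2b by 0.57 and Wnt9b by 0.57, with adjusted p between 0.00155 and 0.0215. The second probe set of Wnt9b had the opposite sign. The calls of Wnt2b and Wnt9b were lost without E8.5 knockout replicate 1 and without E12 knockout replicate 1, and that of Wnt8b without either of these arrays, E8.5 knockout replicate 2 or E12 wild type replicate 1 (adjusted p at most 0.0868). Quantile normalization ended the calls of Wnt8b (0.42, adjusted p = 0.0631) and Wnt9b (0.36, adjusted p = 0.0968), and the mean over probe sets that of Wnt9b (0.20, adjusted p = 0.184). Leaving out both arrays of high Xist ended the calls of Wnt2b (0.58, adjusted p = 0.0588), Wnt9b (0.58, adjusted p = 0.0669) and, just past the threshold, Wnt10a (0.83, adjusted p = 0.05003). The other 10 ligands were not called. Wnt5a (1.03, SE 0.55), Wnt7b (0.77, SE 0.42), Wnt2 (0.70, SE 0.52) and Wnt6 (0.61, SE 0.25) had positive differences, while Wnt10b, Wnt3, Wnt3a and Wnt11, a ligand of heart and kidney, lay between 0.042 and 0.36. Wnt5b had a difference of -1.37 (SE 0.92) and Wnt8a of -1.14 (SE 0.45). Wnt3, an early inducer of the body axis, read 2.90 to 3.26 on all 8 arrays, and without detection calls it could not be told whether it was above background.

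Of the receptors, Fzd1, Fzd10 and Fzd8 rose and Fzd4 fell. Fzd1 read 5.38, 6.44, 7.03 and 6.37 in the E8.5 arrays, in that order, and 8.29, 8.35, 8.14 and 8.10 at E12. Its E12 arrays lay close together and far above E8.5, with a difference of 1.92 (SE 0.26, adjusted p = 0.00188, 3.77-fold) and the same sign in both probe sets. Fzd10 rose by 1.56 (SE 0.23, adjusted p = 0.00244), from 5.15 to 5.72 at E8.5 to between 6.54 and 7.43 at E12, though its dimmer probe set had a difference of the opposite sign. The antisense Fzd10os rose by 1.44 (SE 0.19, adjusted p = 0.00178), and its probes and those of Fzd10 lie at 1 locus. Fzd8 rose by 1.14 (SE 0.19, adjusted p = 0.00387).

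Fzd4, a receptor of vessel growth that also answers the ligand Norrin, read 6.89, 8.24, 7.71 and 8.13 in the E8.5 arrays and 6.39, 6.38, 6.28 and 6.73 in those of E12. The lowest E8.5 array was only just above the highest E12 array. The gene fell by 1.30 on the log2 scale (SE 0.31, adjusted p = 0.0149), and 1 of its 3 probe sets, the dimmest, was higher at E12. The call was lost with the mean over its probe sets, without E8.5 knockout replicate 2 and without E12 knockout replicate 1. Of the 6 Frizzled receptors that were not called, Fzd3 had a difference of 1.40 (SE 0.63) and Fzd2 of 1.21 (SE 0.54), Fzd5 and Fzd9 had 0.15 and 0.037, and Fzd6 and Fzd7 had -0.52 and -0.67. Fzd3 and Fzd6 take part in planar cell polarity, the alignment of cells within a sheet. Neither co-receptor was called, with -0.17 for Lrp5 and 0.52 for Lrp6.

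Of the secreted inhibitors, Dkk2, Wif1, Sfrp1 and Sfrp2 rose and Dkk3 fell. Dkk2, an LRP-binding inhibitor expressed in mesenchyme, read 3.42, 3.77, 3.70 and 3.52 in the E8.5 arrays and 5.99, 6.91, 7.18 and 7.31 in those of E12. Every E12 array was more than 2 units above every E8.5 array, and the difference was 3.24 (SE 0.22, adjusted p = 0.00022). Wif1, which binds Wnt proteins directly and is known from cartilage and lung, read between 2.94 and 3.23 in the E8.5 arrays and 5.87, 5.77, 5.56 and 5.63 in those of E12. Its replicates were close in every group, with a difference of 2.61 (SE 0.10, adjusted p = 4.96e-05). Without detection calls the low E8.5 readings of Dkk2 and Wif1 could not be told from background, so the size of both differences is uncertain. Over the alternative analyses it ranged from 2.23 to 3.47 for Dkk2 and from 1.48 to 2.64 for Wif1.

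Sfrp1, a decoy with a Frizzled-like domain, read 4.75, 7.17, 7.17 and 6.40 at E8.5 and 8.28 to 8.48 at E12. Its difference was 2.04 (SE 0.51, adjusted p = 0.0183), with the same sign in all 5 probe sets, and the call held in 10 of 16 alternative analyses. It was lost with the mean over its probe sets (0.83) and without E8.5 knockout replicate 2 or any 1 of the E12 arrays (1.84 to 2.09, adjusted p at most 0.0669). The related Sfrp2 rose by 1.97 (SE 0.40, adjusted p = 0.00822) and was called in all 16. Dkk3, a divergent Dkk that does not act like the others on LRP, read 5.48, 5.63, 6.35 and 6.14 at E8.5 and 5.01 to 5.31 at E12. It fell by 0.81 on the log2 scale (SE 0.12, adjusted p = 0.00268), and both probe sets had that sign. The 5 other inhibitors were not called, with 0.53 for Frzb, 0.34 for Sfrp5, 0.33 for Sfrp4, 0.022 for Dkk4 and -0.37 for Dkk1.

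**Figure D2:**
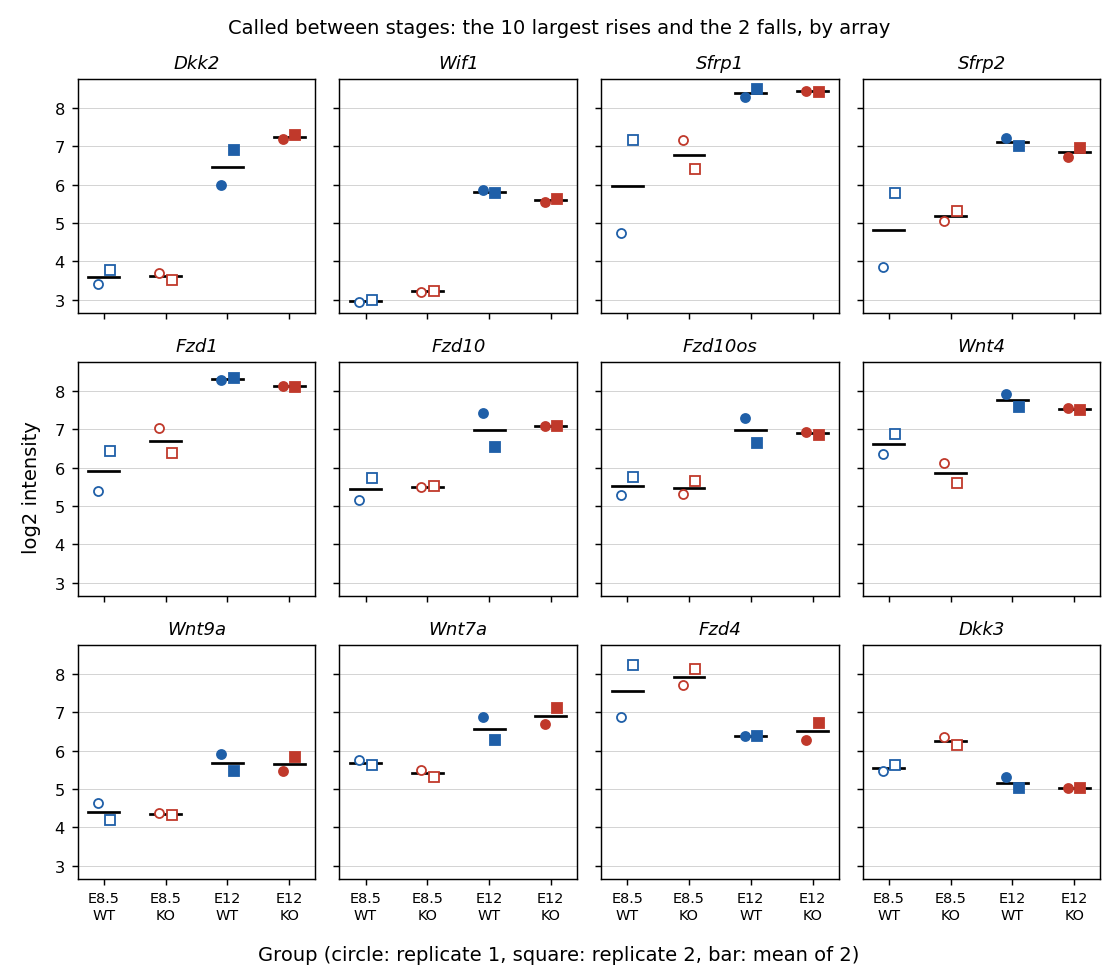
Log2 intensity (vertical axes, 1 scale) of 12 called genes, the 10 with the largest rises and the 2 that fell, in the 4 groups (blue wild type, red knockout, open symbols E8.5, circle replicate 1, square replicate 2, bar the mean of 2). Dkk2 and Wif1 lie below 4 in all E8.5 arrays and above 5.5 in all E12 arrays, while Fzd4 and Dkk3 lie lower at E12.

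In wild type alone 17 genes rose and none fell, beside 12.1% and 15.7% of all probe sets called higher and lower. With the replicate block the split was 14 and 1, beside 27.3% of all probe sets called in either direction. Without E8.5 wild type replicate 1, and without both arrays of high Xist, some genes of the set were called lower too. In knockout alone 11 rose and 2 fell, beside 11.6% and 14.1%. Frzb, a ligand-binding inhibitor of cartilage, was called in wild type (0.93, adjusted p = 0.0408) and had a difference of 0.13 in knockout. Dkk1, an inhibitor required for head formation, fell by 0.88 on the log2 scale in knockout (adjusted p = 0.0343) and had a difference of 0.15 in wild type. These genotype differences were tested by the interaction given below and were not called. Single arrays weighed heavily here. With 1 array left out the counts in both genotypes fell or rose, and so did the share called over all probe sets, so these swings are not particular to the set.

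Several Wnt genes lie side by side in the mouse genome. In RefSeq (GRCm38.p6) 4 pairs of these genes have no other protein-coding gene between them. On chromosome 11 Wnt9a rose by 1.30, beside 0.067 (SE 0.18) for its neighbour Wnt3a, a ligand of the tail bud. On chromosome 15 Wnt1 had a difference of 1.05 and Wnt10b of 0.36 (adjusted p = 0.053). Wnt10a and Wnt6 on chromosome 1 had 0.85 and 0.61, with Wnt10a called, and Wnt9b and Wnt3 on chromosome 11 had 0.57 and 0.15, with Wnt9b called. Each pair thus held 1 called gene and 1 that was not, which does not show that the 2 differ.

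The rest of the pathway was described from lists of known members, whose counts stand beside 20.6% of all probe sets called higher and 22.5% called lower. Of 4 R-spondins, which amplify Wnt signals, Rspo2 and Rspo1 rose. Rspo2, needed for limbs and lungs, read 3.89 to 4.09 at E8.5 against 6.77 to 7.59 at E12, a difference of 3.25 (SE 0.12, adjusted p = 3.94e-05). Of 7 other extracellular antagonists, Sostdc1 (2.66) and Sost (0.50) rose and Apcdd1 (-1.37) fell. Wls, which carries Wnt proteins to the cell surface, fell by 1.05 on the log2 scale, and 1 of 9 other receptors, the Wnt5a receptor Ror1, rose by 1.03.

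Inside the cell, 6 of 16 cytoplasmic transducers (37.5%) rose and 4 fell, the latter near the share over the array, with Gsk3b (1.47), a kinase that marks beta-catenin for degradation, and Frat2 (1.14) among the former and Dvl1 (-2.02) and Csnk1a1 (-1.15) among the latter. Of 12 TCF/LEF factors and nuclear partners 3 rose (25%), led by Tcf7l2 (1.60), and 2 fell (16.7%), both near the shares over the array. Quantile normalization of the arrays turned the direction of Csnk1a1, of the co-repressor Tle3 and of the beta-catenin partner Pygo2, so their directions rest on the scaling. Of 9 planar polarity genes 5 (55.6%) rose and 2 fell, the latter again near the share over the array, with Celsr2 at 2.67, Vangl2 at 1.53 and Celsr3 at 1.16.

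Of 18 measured genes that beta-catenin is known to switch on, 2 rose and 4 fell, with a median of -0.28, beside 20.6% of all probe sets called higher and 22.5% called lower, so that the share that fell was near that of the array as a whole. Cdx2, a factor of the posterior body and gut, read 7.59 to 8.79 at E8.5 against 4.28 to 4.50 at E12, a difference of -3.99 (SE 0.22, adjusted p = 0.000135). Myc had a difference of -2.60, Cdx4 of -3.27 and Sp5 of -1.98. Nkd2 went the other way, at 4.62 to 5.63 at E8.5 against 6.86 to 7.21 at E12. Cdx4 and Sp5 read 3.29 and 4.56 in E8.5 wild type replicate 1, as low as their E12 arrays, and between 7.14 and 8.67 in the remaining arrays of that stage.

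**Figure D3:**
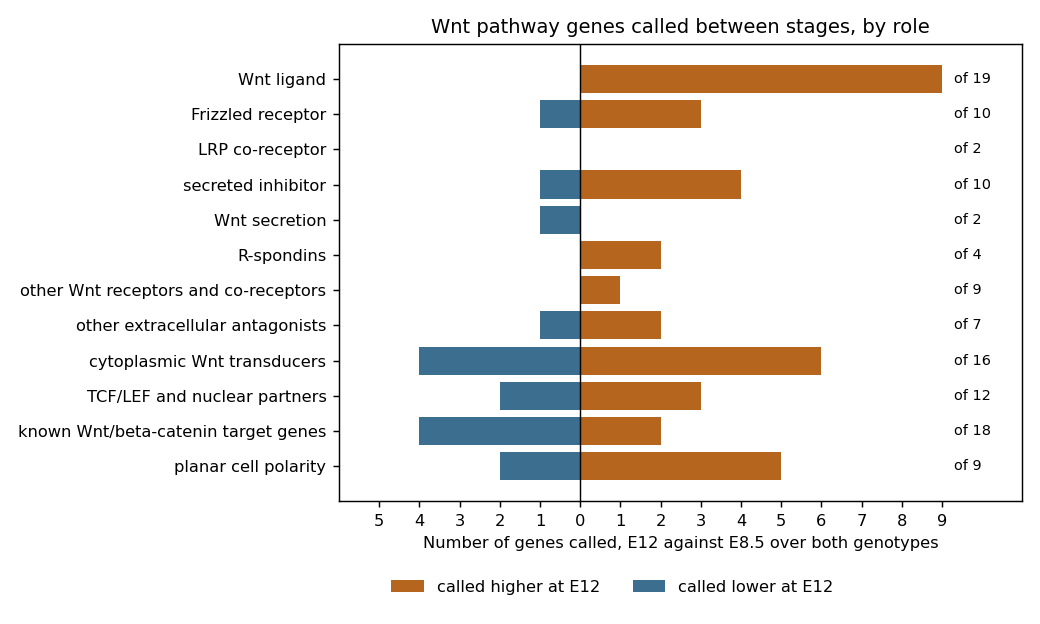
Number of genes called higher at E12 (brown, to the right) and lower (blue, to the left) in the stage comparison averaged over genotypes, for 4 groups of the 42 genes and 8 lists of other pathway genes, with the number measured at the right. The ligands have 9 called higher and 0 lower of 19, and the target genes 2 higher and 4 lower of 18.

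E8.5 wild type replicate 1 stood apart from the other 3 E8.5 arrays for these genes. It was the lowest of the 4 for 25 of the 42, and 12 lay more than 1 below the mean of the other 3, beside 5.15% of all probe sets. Only Wnt7b lay more than 1 above it, beside 4.61% of all probe sets. Wnt5b, a polarity ligand of cartilage and mesoderm, read 4.50 in that array and 9.14, 8.10 and 7.42 in the others. Fzd3, a polarity receptor of axon tracts, read 4.73 beside 7.56, 8.24 and 7.67. Wnt5a, which drives outgrowth of the tail and limbs, read 5.37 beside 7.96, 7.98 and 7.25.

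Fzd2 read 5.88 beside 8.49, 8.77 and 8.31, and Wnt8a, a ligand of the early embryo, read 4.38 beside 6.54, 6.94 and 6.52. In each of these 5 genes the array lay below every other array of its stage. Sfrp1, Wnt2, Sfrp2, Fzd7, Sfrp5, Fzd1 and Fzd4 completed the 12. Wnt7b, a ligand needed in placenta and lung, read 7.51 beside 5.60, 6.53 and 5.65. In the same array limb bud markers averaged 4.18 (5.51 to 5.71 in the others), heart markers 5.32 (6.58 to 7.61), somite markers 4.62 (5.15 to 5.72) and trophoblast markers 9.06 (5.54 to 6.08). E8.5 wild type replicate 2 stood apart too, in red cell markers, which averaged 10.17 there and 7.80 to 8.13 in the other 3 (6 measured of 7 listed). All 6 were lower in the E8.5 knockout, with a median of -0.85, or -1.92 with replicate 2 as the only wild type array. With replicate 1 as the only wild type array, 3 of the 6 were higher in knockout and the median was 0.19, so the deficit rested on replicate 2. What part these tissues had in the Wnt values was not tested.

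Without this array the stage differences moved down for genes that had read low in it. The positive differences of Fzd3, Fzd2, Wnt5a and Sfrp1 became smaller, and several negative ones became larger in size. The difference was then -2.53 for Wnt5b, -1.68 for Wnt8a, -0.96 for Fzd7, -0.68 for Fzd6 and -0.53 for Dkk1. Calls over the whole array also became more frequent, so the number of called genes is not set against that with all arrays. All 19 genes called with all arrays were called again. Without E8.5 wild type replicate 2, where calls over the whole array were likewise more frequent, the 19 were again called.

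**Figure D4:**
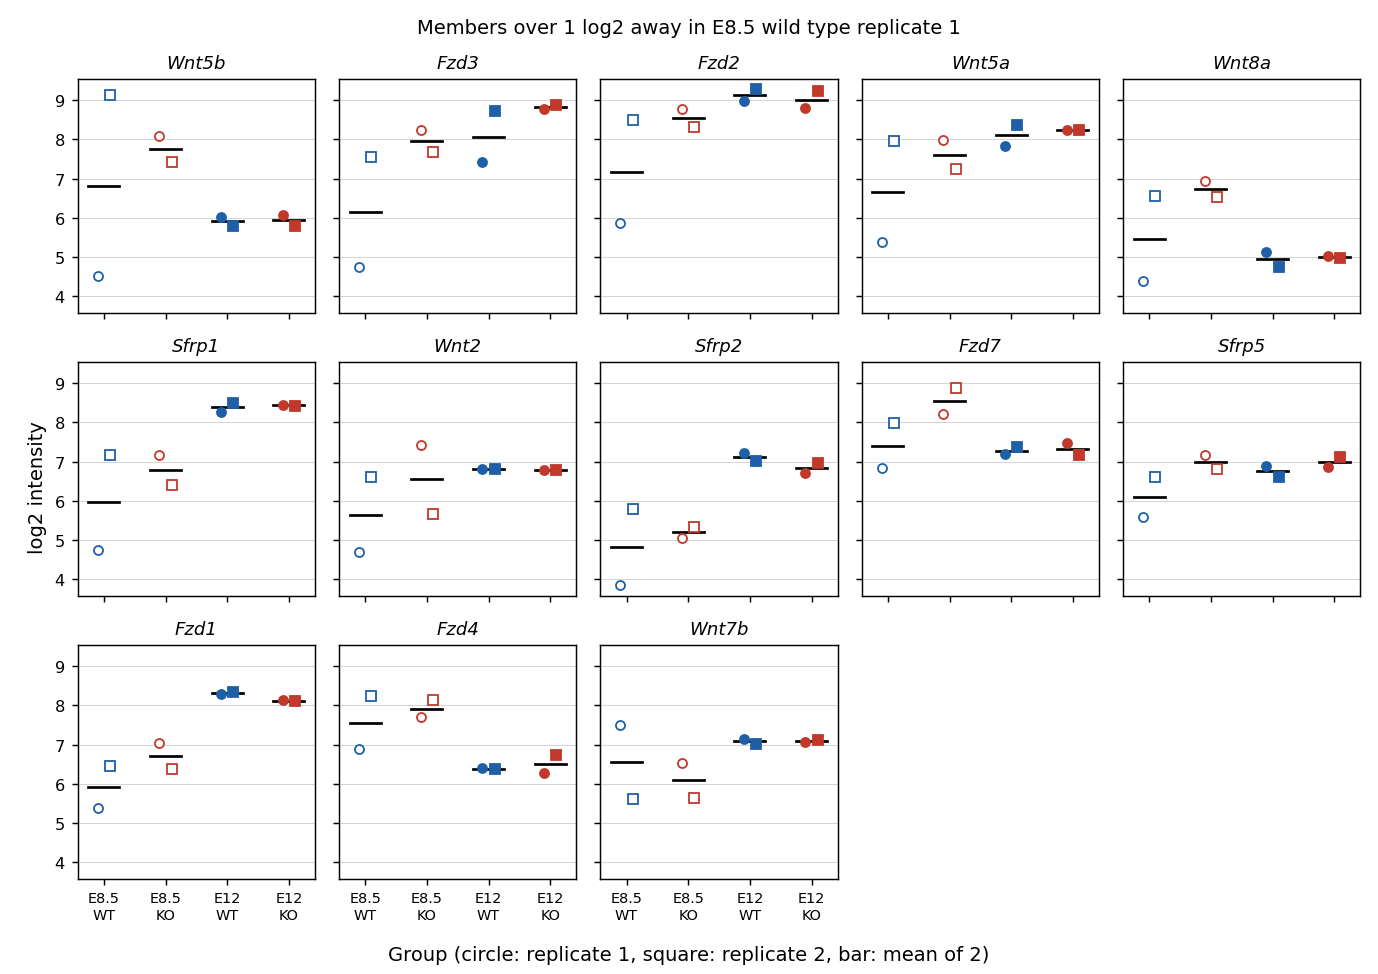
Log2 intensity (vertical axes, 1 scale) of the 13 genes that lay more than 1 from the mean of the other E8.5 arrays in E8.5 wild type replicate 1, in the 4 groups (symbols and colours: blue wild type, red knockout, open E8.5, circle replicate 1, square replicate 2, bar the mean of 2). The open blue circle lies lowest of the E8.5 symbols in 12 panels and highest in that of Wnt7b.

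No gene of the set was called between Runx1 knockout and wild type at E8.5, where 0% of all probe sets were called by limma. The lowest adjusted p among them was 0.990, and 5 had an unadjusted p under 0.05 (2132 of all probe sets). With the uncorrected rule used in the study, a moderated t beyond 3 in size, 2 passed, both higher in knockout, beside 2.06% of all probe sets. These were Dkk1, at 5.47 and 6.13 in wild type against 6.61 and 6.65 in knockout, and Dkk3, at 5.48 and 5.63 against 6.35 and 6.14. The knockout arrays lay above the wild type arrays for both genes, which follows largely from picking them by t. The difference was 0.83 for Dkk1 (SE 0.23, 95% interval 0.27 to 1.38) and 0.69 for Dkk3 (SE 0.17, interval 0.27 to 1.11).

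Both Dkk1 probe sets had that sign, whereas the second Dkk3 probe set averaged 5.83 in wild type and 5.80 in knockout. Without E8.5 wild type replicate 1 the differences were 0.49 and 0.61, with adjusted p of 0.346 and 0.322. Fzd7, at 6.83 and 7.97 in wild type against 8.20 and 8.87 in knockout, and Sfrp5, at 5.58 and 6.59 against 7.18 and 6.80, had the next highest t. Their differences were 1.14 (SE 0.40) and 0.90 (SE 0.35), which became 0.56 and 0.39 without E8.5 wild type replicate 1. The second Sfrp5 probe set did not share this, at 5.264 in wild type and 5.256 in knockout. At the low end, Wnt4 had -0.76 (SE 0.27), Wnt6 -0.77 (SE 0.36), Wnt11 -0.39 (SE 0.22) and Wnt16 -0.24 (SE 0.16). Wnt4 read 6.36 and 6.89 in wild type against 6.12 and 5.59 in knockout, without overlap, but it too was picked by its t.

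By role, all 10 inhibitors and 9 of 10 Frizzled receptors had a positive difference at E8.5, beside 10 of 19 ligands and neither LRP. Over the 42 genes 29 were positive with a median of 0.12, while 46.9% of all probe sets were positive with a median of -0.018. This rested on E8.5 wild type replicate 1. Without it 20 of 42 were positive with a median of -0.012, 6 of 10 inhibitors, 6 of 10 receptors and 7 of 19 ligands were positive, and none was called. Without E8.5 wild type replicate 2 in its place, 10 were called higher in knockout (4.31% of all probe sets were called in either direction). They were Wnt5b (3.26), Wnt8a (2.35), Fzd2 (2.66), Fzd3 (3.23), Wnt5a (2.24), Dkk1 (1.16), Sfrp1 (2.03), Sfrp2 (1.35), Fzd7 (1.71) and Sfrp5 (1.41).

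Of these 10, all but Dkk1 are among the genes that lay more than 1 low in wild type replicate 1, the only wild type array then left. The spread in these fits comes from the other 3 groups, so the calls carry no information on how E8.5 wild type embryos vary. With replicate 2 as the only wild type array, Wnt5b had -1.38, Wnt5a -0.34, Sfrp1 -0.39 and Sfrp2 -0.59, the opposite direction, while the other 6 stayed positive, with Fzd7 at 0.56, Dkk1 at 0.49, Fzd3 at 0.40, Sfrp5 at 0.39, Wnt8a at 0.19 and Fzd2 at 0.055. The beta-catenin target genes had 14 of 18 positive with a median of 0.71 over both wild type arrays, 5 of 18 and -0.32 without replicate 1, and 16 of 18 and 1.76 without replicate 2. For the genes that differed between the wild type arrays the E8.5 comparison was imprecise, and the 95% interval for Wnt5b ran from -2.19 to 4.08. For 22 of the 42 genes the interval lay within 1 on either side of 0, Wif1, Dkk2, Wnt1 and Lrp6 among them. These intervals use a spread shared by all 4 groups and not that of the E8.5 arrays alone.

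**Figure D5:**
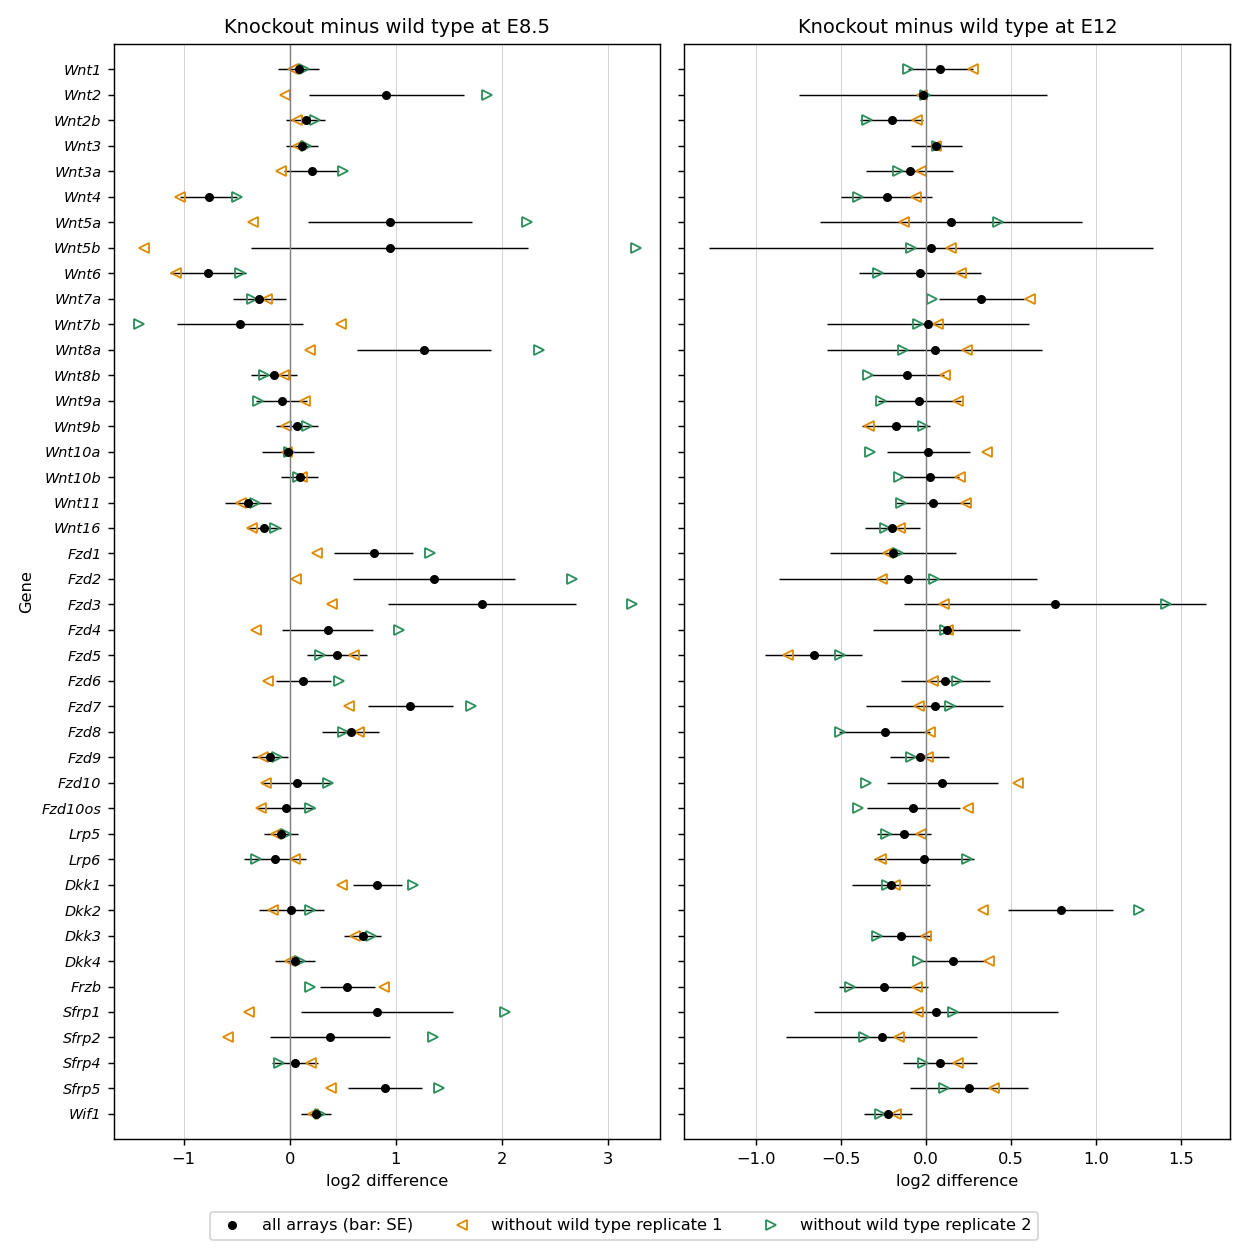
Knockout minus wild type log2 difference (horizontal axes, separate scales) of the 42 genes at E8.5 (left) and E12 (right), with all arrays (black point, bar 1 SE), without wild type replicate 1 of that stage (orange) and without wild type replicate 2 (green). For Wnt5b at E8.5 the value is 0.94 with all arrays, -1.38 without replicate 1 and 3.26 without replicate 2, whereas Dkk3 stays between 0.61 and 0.77.

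At E12 none of the 42 genes was called either, beside 0.0133% of all probe sets, and none passed an absolute t of 3, beside 0.655%. There were 20 positive and 22 negative differences with a median of -0.014, beside 52.5% of all probe sets positive. Only 1 had an unadjusted p under 0.05 (713 of all probe sets). That gene was Dkk2, higher in knockout by 0.79 (SE 0.31, 95% interval 0.051 to 1.54, adjusted p = 1.000). Its wild type arrays differed by about as much, at 5.99 and 6.91, and its knockout arrays read 7.18 and 7.31. Without wild type replicate 1 the difference was 0.33.

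Wnt7a (0.33, SE 0.25), Fzd3 (0.76, SE 0.89) and Dkk4 (0.16, SE 0.19) followed in order of t. Fzd5, a receptor of yolk sac and eye, was lowest. It read 7.99 and 8.30 in wild type against 7.36 and 7.60 in knockout, a difference of -0.66 (SE 0.29, interval -1.35 to 0.024). The arrays did not overlap, but the gene was picked by its low t. Wif1 had -0.23 (SE 0.14), Wnt16 -0.20 (SE 0.16) and Wnt2b -0.20 (SE 0.19). The interval lay within 1 on either side of 0 for 27 of the 42 genes. The spread was shared by all 4 groups, so a gene's interval was equally wide at both stages and does not give the precision of E12 alone. That of Wnt5b ran from -3.11 to 3.16, though its E12 arrays read 5.79 to 6.08. Without E12 wild type replicate 2, 12 of 42 were positive, beside 46.5% of all probe sets. Without replicate 1 it was 24, beside 51.3%.

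The knockout difference at E12 was compared with that at E8.5 by the interaction. No gene of the set was called, beside 0.00444% of all probe sets, and 3 had an unadjusted p under 0.05 (842 of all). Dkk1 (-1.03, SE 0.33) and Dkk3 (-0.84, SE 0.25) passed an absolute t of 3, beside 0.688% of all probe sets. Each had already passed it at E8.5, and that difference enters the interaction, so this is no separate support. The sign was shared by both Dkk1 probe sets but by only 1 of 2 for Dkk3. Its dimmer probe set went from 5.83 (wild type) to 5.80 (knockout) at the early stage, but from 4.87 to 5.01 at the later one. Dkk1 read 0.83 higher in knockout at E8.5 and 0.21 lower at E12, where its arrays were 5.97 and 5.93 in wild type against 5.77 and 5.72 in knockout. Without E8.5 wild type replicate 2 the interactions of Wnt5b, Fzd2 and Wnt8a, all low in the wild type array then left, were larger in size. Without replicate 1 in its place, that of Wnt5b turned positive and those of Fzd2 and Wnt8a were smaller.

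Among the other pathway genes none was called in either knockout comparison. Tcf7l1, a TCF factor that mostly represses, read 9.10 and 9.07 in wild type at E8.5 against 8.27 and 8.29 in knockout, a difference of -0.80 (SE 0.14, adjusted p = 0.864). At E12 it read 8.55 and 8.62 in wild type against 8.23 and 8.22 in knockout, a difference of -0.37 (SE 0.14). The groups did not overlap at either stage, and replicates lay closer to each other than to the other genotype. Tcf7l1 was named for the largest absolute t of its list in both comparisons, so this separation follows from the choice and is no separate support. Ror1 had a difference of 1.45 (SE 0.38) and Wls of 0.99 (SE 0.36) at E8.5, and Rspo2 of 0.62 (SE 0.16) at E12, where it read 6.77 and 7.06 in wild type against 7.59 and 7.50 in knockout. Rspo3 had 1.54 at E8.5 and -0.0057 without wild type replicate 1, in which it read 5.78 beside 8.62 to 9.14 in the other arrays.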

How the data were processed

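Total RNA of embryo propers was extracted with Trizol, amplified in 2 rounds and hybridized to Affymetrix whole-genome mouse arrays. The deposited values are linear intensity values per probe set, which the authors obtained with Robust Multi-array Analysis (RMA). Whether all 8 arrays were normalized together is unstated in the sources used here. Differences between stages depend on that scaling, since the 99th percentile of log2 values lay between 12.2 and 12.3 in E8.5 arrays and between 10.5 and 11.1 in E12 arrays. Values were taken to log2, 64 control probe sets were left out of 45101, and genes were named from the platform annotation (34945 probe sets with 1 symbol, 932 with several, 9160 with none).

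The model had 1 mean for each group and was fitted to all 8 arrays by limma 3.58.1 (R 4.3.3), with empirical Bayes moderation and Benjamini-Hochberg adjustment over 45037 probe sets. The script was tested on simulated data. Genes were named as those called between stages (up to 10 each way by size), the 4 highest and 4 lowest by moderated t in each knockout comparison, genes whose probe sets disagree, and up to 4 per pathway list. Other genes of the set, and Nkd2 of the target genes, were named after their values were seen. The genes and lists were chosen with earlier results of these data known. Only 2 arrays per group limit the precision.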

Additional observations from a re-analysis of the deposited data

How the results depend on the processing

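The stage comparison averaged over genotypes called 19 genes, and 13 of them (Dkk2, Wif1, Sfrp2, Dkk3, Fzd1, Fzd8, Fzd10, Fzd10os, Wnt1, Wnt4, Wnt7a, Wnt9a and Wnt16) were called in every alternative that tested them. Its count was 24 after quantile normalization, with 17 shared, 14 in the brighter part of the probe sets and 14 to 27 with 1 array left out. In wild type the count was 2 with that genotype fitted alone, 10 without both arrays of high Xist and 5 to 20 with 1 array left out. In knockout it was 24 with that genotype fitted alone and 2 to 20 with 1 array left out. Of all probe sets, 4.58% were called with wild type fitted alone and 44.1% with knockout fitted alone, against 27.8% and 25.6% in the main fit. With 1 array left out that share also fell or rose, so these swings are not particular to the set. An absolute t above 3 gave 2 genes for the knockout comparison at E8.5 and 2 for the interaction. Leaving out 1 array gave 0 to 10, 0 to 3 and, at E12, 0 to 0. Higher calls were 43.6% of all wild type stage calls and 53.8% after quantile normalization, which also turned Csnk1a1 to 0.34, Tle3 to 0.052 and Pygo2 to 0.11. Rspo3 at E8.5 ranged from -0.0057 to 3.10 with 1 array left out, the former without E8.5 wild type replicate 1, with or without E12 knockout replicate 2, and Dkk4 at E12 was -0.047 without E12 wild type replicate 2. The cause was not tested.

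Replicate numbers were shared between groups, but with 2 pairs per stage they were taken as names only (the deviations of replicate 1 correlated at 0.37 between genotypes at E8.5 and 0.17 at E12). With the replicate block the counts were 0, 0 and 0 for the knockout comparisons and the interaction, and 15, 14 and 20 for the stage comparison in wild type, in knockout and averaged. The target, R-spondin and other lists without single E8.5 wild type arrays were examined after seeing the data.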
